A study of Mus musculus with 18 samples.

Results

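Transcripts of 8 complement components and regulators were followed through 6 sorted populations of mouse airway and lung cells. The genes were chosen by symbol (*C3*, *C4b*, *Cfb*, *Cfd*, *Hc*, *Cfi*, *Serping1* and *Cd55*), and each symbol was matched to its Entrez identifier in the count files. They are 8 of the 27179 genes counted. RNA from 18 libraries, 3 for each population, was sequenced as single-end reads of 100 bases, and the values given are read counts per gene or levels computed from them.

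The animals were C57BL/6 male mice of 8 to 12 weeks, and the labels give the tissue as normal and name no treatment. Tracheal basal stem cells (BSCs) carried NGFR, and the tracheal cells of the same 3 mice without NGFR gave a non-basal population. The lungs of another 3 mice gave 4 populations: EpCAM+CD104+CD24hi airway cells, which the labels call enriched in ciliated cells, EpCAM+CD104+CD24lo airway cells, called enriched in club cells, EpCAM+CD104lo alveolar cells, and EpCAM-negative non-epithelial cells. Replicates are therefore separate mice, and within each organ every mouse contributed to all of its populations. Differences between trachea and lung are also differences between animals and between cell preparations, and these cannot be told apart.

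Counted reads ran from 29317215 to 32993621 in tracheal libraries and from 9811503 to 13208897 in lung libraries. A defining marker of each cell type was highest in the population named for it: *Krt5* averaged 3369.2 CPM in BSCs, *Foxj1* 1613.2 CPM in CD24hi cells, *Scgb1a1* 280147.4 CPM in CD24lo cells, *Sftpc* 125610.6 CPM in alveolar cells and *Col1a1* 5188.0 CPM in EpCAM-negative cells. Of the other club markers, *Scgb3a2*, *Cyp2f2* and *Scgb3a1* averaged 10837.9, 25968.3 and 10960.0 CPM in tracheal non-basal cells. In CD24lo cells they averaged less, at 9010.7, 21101.2 and 4474.6 CPM. *Cbr2* and *Cldn10* were highest in CD24lo cells. Some gates also held reads from markers of cell types they are not named for, and the source of those reads was not tested. The summed level of 6 club cell markers was 83376.1 to 90480.8 CPM in non-basal cells, 48039.2 to 62520.7 CPM in the ciliated-enriched CD24hi libraries and 20133.6 to 23737.1 CPM in BSCs. The 5 endothelial markers summed to 462.0 to 709.9 CPM in EpCAM-negative cells, 198.0 to 968.0 CPM in the airway gates and 143.4 to 283.9 CPM in alveolar cells. Over all genes, replicate 1 lay farther from the other replicates of its gate in both tracheal and both airway populations, and replicate 2 in alveolar cells (chi-square per degree of freedom 21.13 to 39.56, against 5.23 to 7.43 between the other pair). Levels are in CPM, reads scaled to the size of the library, adjusted by trimmed mean of M-values (TMM) factors, or in RPKM, which also divides by gene length, where genes are compared with each other. Bulk values do not separate fewer cells of a type from less RNA per cell.

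Complement is a cascade of plasma proteins that marks microbes and damaged cells for uptake and lysis. C4 and C2, after classical or lectin activation, and C3 with factor B and factor D, in the alternative pathway, build the convertases that cleave C3 and then C5, whose cleavage starts the membrane attack complex. The liver makes most of the circulating proteins, lung epithelium and stroma are known local sources, and host cells are shielded by soluble inhibitors and by membrane regulators such as CD55.

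On the mm10 assembly the central component gene *C3* lies at chr17:57203967-57228136 and *C4b*, the classical and lectin convertase component, at chr17:34728139-34743902. *Cfb* (factor B, the catalytic chain of the alternative convertase) lies at chr17:34856374-34862514 and *Cfd* (factor D, the protease that cleaves factor B) at chr10:79890853-79892655. *Hc*, the mouse gene for C5, lies at chr2:34983329-35068506. Among the regulators, *Cfi* (factor I, which degrades C3b and C4b) lies at chr3:129836727-129875332, *Serping1* (C1 inhibitor) at chr2:84765360-84775444 and *Cd55* (decay accelerating factor, a membrane protein that dissociates convertases) at chr1:130429798-130465009. Reads were counted over the exons of these genes.

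The promoters that could be read from the RefSeq table are shown for 3 members whose mean levels peaked in different populations, and for *Cd55b*, the paralogue of *Cd55*, whose mean was also highest in CD24hi cells. Each is a window of 300 bases on the minus strand of GRCm38.p6 (the mm10 assembly), printed 5′ to 3′, from 250 bases before to 50 after the annotated start: *Cd55* chr1:130462695-130462994, *Cd55b* chr1:130422994-130423293, *C3* chr17:57228087-57228386 and *Hc* chr2:35061363-35061662. The *Cd55* and *Hc* windows lie inside the gene spans given above, because the table uses a start downstream of the outermost one. Capitals mark matches to the searched motifs.

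Cd55: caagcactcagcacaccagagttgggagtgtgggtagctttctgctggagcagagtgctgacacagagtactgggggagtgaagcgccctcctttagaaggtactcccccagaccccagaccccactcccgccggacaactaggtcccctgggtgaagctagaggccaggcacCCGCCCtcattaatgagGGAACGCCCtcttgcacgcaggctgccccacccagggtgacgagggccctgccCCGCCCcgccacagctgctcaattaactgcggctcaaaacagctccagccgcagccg
Cd55b: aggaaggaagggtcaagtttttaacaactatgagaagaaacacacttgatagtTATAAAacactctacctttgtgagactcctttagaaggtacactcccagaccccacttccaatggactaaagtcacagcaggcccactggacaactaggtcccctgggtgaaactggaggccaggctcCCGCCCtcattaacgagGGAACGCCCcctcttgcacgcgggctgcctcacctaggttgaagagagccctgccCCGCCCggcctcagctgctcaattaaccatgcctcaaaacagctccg
C3: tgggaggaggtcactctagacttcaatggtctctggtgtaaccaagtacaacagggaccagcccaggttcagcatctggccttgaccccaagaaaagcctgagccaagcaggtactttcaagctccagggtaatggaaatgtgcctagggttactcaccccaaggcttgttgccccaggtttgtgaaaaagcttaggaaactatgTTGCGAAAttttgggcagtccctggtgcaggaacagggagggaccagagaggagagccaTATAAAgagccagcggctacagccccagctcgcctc
Hc: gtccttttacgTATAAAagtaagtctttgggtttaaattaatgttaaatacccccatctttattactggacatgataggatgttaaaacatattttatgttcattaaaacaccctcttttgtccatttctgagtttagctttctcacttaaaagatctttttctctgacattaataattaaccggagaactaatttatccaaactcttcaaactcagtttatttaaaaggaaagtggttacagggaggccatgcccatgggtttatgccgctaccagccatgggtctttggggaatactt

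Of the 8 members, 4 (*Cd55*, *C3*, *Hc* and *Cfd*) had an entry in that table. The *Cd55* and *Cd55b* windows were identical at 213 of 323 aligned columns (65.9%), whereas the other pairs aligned had 41.7% to 48.7% identity. Both held CCGCCC at 2 places, which is the GC box GGGCGG on the other strand and occurs in 35.9% of the 27025 promoters in the table, and both held GGAACGCCC, a match on the other strand to the NF-kB motif GGGNNTTCC, which 5.7% of promoters hold. The *Cd55b* window also held a TATAAA 197 bases before the annotated start, and the *Cd55* window held none. The *C3* window held TTGCGAAA, a C/EBP core match (TTGCNNAA, in 10.8% of promoters), 45 bases before the annotated start, and a TATAAA (14.2% of promoters) beginning 14 bases after it. In *Hc* the one match was a TATAAA 239 bases before the start. Both strands were searched for these 4 motifs and for TTCNNNGAA (8.5% of promoters), the printed matches do not overlap each other, and the *Cfd* window held none of the 5. These matches describe letters in a window and not factor binding.

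C3, on which all routes of activation converge, was abundant in every population. *C3* stood at 5520.1, 5651.7 and 5652.5 CPM in the EpCAM-negative libraries, 846.8, 982.3 and 1099.0 in CD24lo cells, 716.8, 558.4 and 606.6 in alveolar cells, 618.7, 596.0 and 631.7 in tracheal non-basal cells, 190.5, 131.1 and 125.2 in CD24hi cells and 129.5, 116.8 and 114.8 in BSCs. The EpCAM-negative libraries lay far above the rest, the alveolar and non-basal libraries overlapped, and so did the CD24hi and BSC libraries. EpCAM-negative cells exceeded CD24lo cells, the next population, 5.75-fold (log2 fold change 2.52 ± 0.15 SE, adjusted p = 1.2e-10, edgeR's quasi-likelihood test with Benjamini-Hochberg adjustment over 17989 genes, as for all adjusted p-values below). Within each airway the 2 sorted fractions differed by a similar factor: *C3* was 5.11-fold lower in BSCs than in non-basal tracheal cells (log2 fold change -2.35 ± 0.15, adjusted p = 1.35e-09) and 6.55-fold lower in CD24hi than in CD24lo cells (log2 fold change -2.71 ± 0.16, adjusted p = 4.98e-10).

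**Figure D1:**
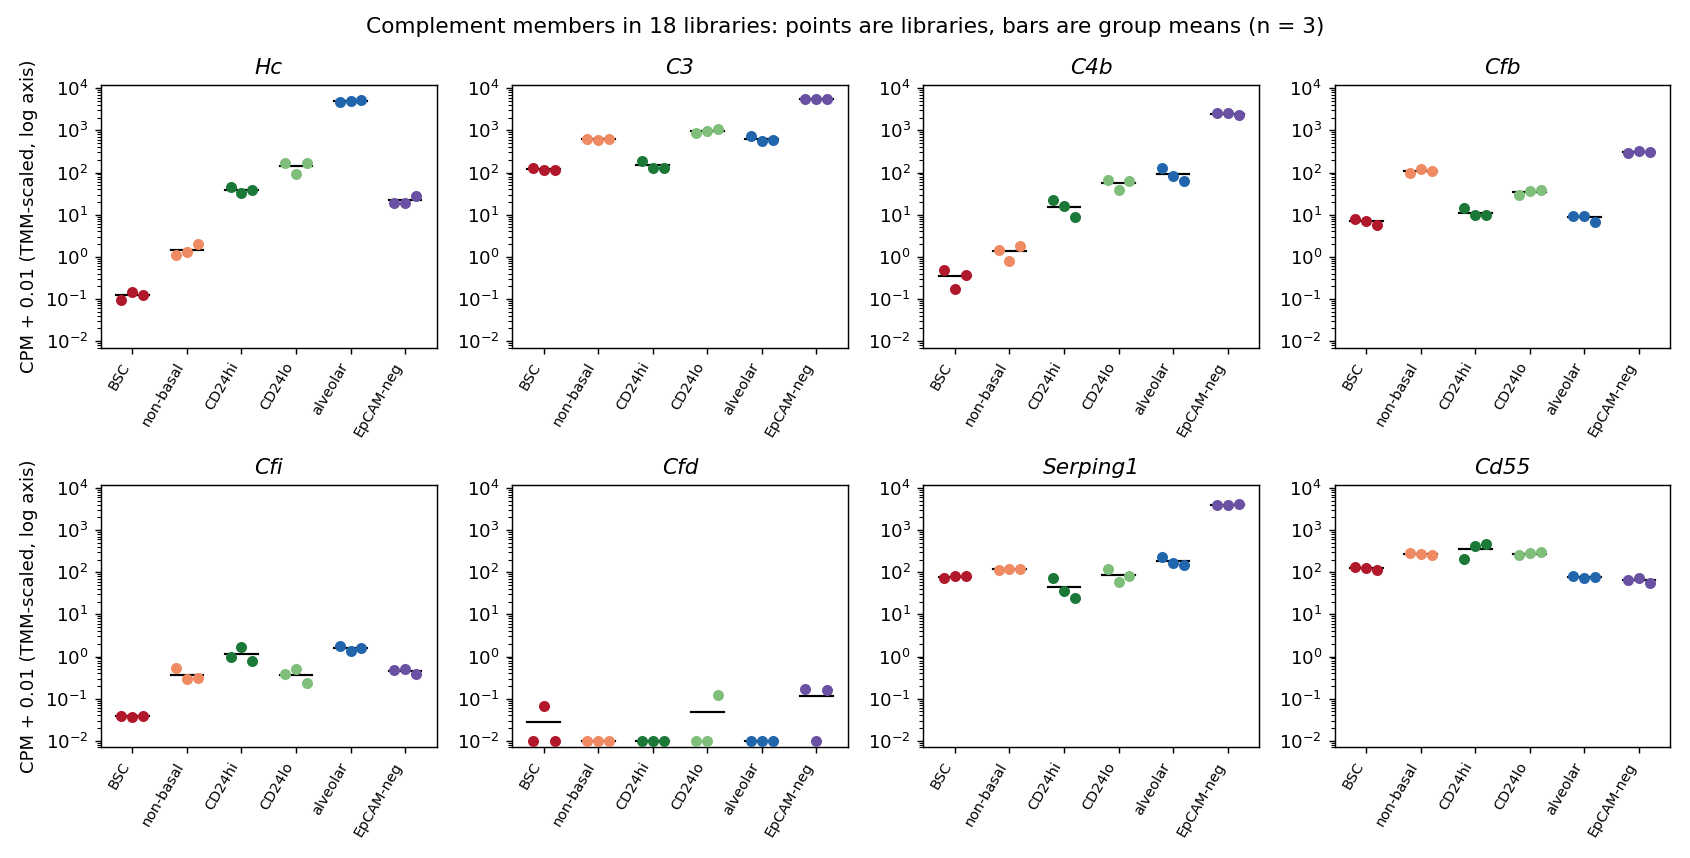
Level of each member in the 18 libraries (CPM + 0.01 on a log axis); points are libraries, bars are means of 3 libraries. *Hc* peaked in alveolar cells at a mean of 4984.8 CPM, *C3*, *C4b*, *Cfb* and *Serping1* in EpCAM-negative cells, and *Cd55* in CD24hi airway cells at a mean of 366.1 CPM. The *Cd55* libraries of CD24hi cells overlapped those of CD24lo and non-basal cells.

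Factor B had a different second place. *Cfb* read 296.9, 323.1 and 304.9 CPM in EpCAM-negative cells, 99.3, 120.1 and 108.7 in tracheal non-basal cells, 28.9, 36.9 and 39.3 in CD24lo cells, 14.0, 9.56 and 9.75 in CD24hi cells, 9.52, 9.39 and 6.76 in alveolar cells and 8.08, 7.05 and 5.79 in BSCs. Neighbours in this order did not overlap except alveolar cells and BSCs. Non-basal cells carried 15.7 times the level of BSCs from the same tracheas (log2 fold change of BSCs against them -3.97 ± 0.17, adjusted p = 1.45e-11). They also exceeded CD24lo lung airway cells 3.13-fold (log2 fold change 1.64 ± 0.15, adjusted p = 1.26e-07), and *Cfb* was the single member called higher on the tracheal side there. Unlike *Hc* and *Serping1*, *Cfb* was 4.07-fold higher in CD24lo than in alveolar cells (log2 fold change 2.03 ± 0.17, adjusted p = 2.99e-08). The GENCODE annotation of the same assembly places 79.5% of the exonic bases of *Cfb* within the readthrough gene *Gm20547* on the same strand, which has no row of its own in the counts, so these values can include its reads.

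*C4b* was highest by a wide margin in EpCAM-negative cells, at 2598.1, 2522.3 and 2358.3 CPM. The lung epithelial libraries held 129.4, 83.0 and 62.6 CPM (alveolar), 66.2, 39.2 and 62.7 (CD24lo) and 22.2, 15.7 and 8.97 (CD24hi), and the tracheal ones 1.43, 0.773 and 1.82 (non-basal) and 0.483, 0.166 and 0.367 (BSCs). Alveolar and CD24lo libraries overlapped and the other neighbours in this order did not. The EpCAM-negative mean was 27.2-fold above the alveolar mean (log2 fold change 4.76 ± 0.34, adjusted p = 1.02e-09), and the CD24lo mean 1.64-fold below it (log2 fold change -0.71 ± 0.30, adjusted p = 0.0601, or 0.0228 with the mouse as a block). Among tracheal cells, 120 *C4b* reads in non-basal libraries against 36 in BSC libraries gave a ratio of 4.02 (95% counting interval 2.75 to 6.01; log2 fold change of BSCs -1.98 ± 0.52, adjusted p = 0.00459). With limma voom that adjusted p was 0.0679. *C4b* and its neighbour *C4a* share 15.2% of the 100-base words of *C4b*, where reads could not be assigned to a single gene with certainty.

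*Cfd*, an adipocyte-rich product also called adipsin, was close to absent. It had 7 reads in all 18 libraries: 2 in BSCs, 1 in CD24lo cells and 4 in EpCAM-negative cells, and so did not enter the test. The EpCAM-negative reads correspond to 0.106 CPM (95% Poisson interval 0.0289 to 0.272), and 0 reads in alveolar cells allow up to 0.0934 CPM over the group by a limit of 3 reads, or 0.115 CPM by the upper end of the same interval. The adipocyte markers *Adipoq* and *Lep* averaged 0 CPM in the EpCAM-negative libraries, and the 5 adipocyte markers together summed to 4.9 to 7.01 CPM there. Of the 3 genes that make the alternative convertase (*C3*, *Cfb* and *Cfd*), the activating protease was thus not detectable above a few reads in the populations where the other 2 were highest. Intervals and limits of this kind cover counting error only.

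*Hc* encodes C5, the source of the anaphylatoxin C5a and the first component of the membrane attack complex. It read 4746.9, 4911.4 and 5296.2 CPM in the alveolar libraries, 164.7, 91.6 and 164.8 in CD24lo cells, 44.8, 32.8 and 38.2 in CD24hi cells, 19.4, 19.0 and 27.9 in EpCAM-negative cells, 1.09, 1.26 and 1.99 in non-basal cells and 0.0853, 0.138 and 0.113 in BSCs. No neighbouring populations in this order overlapped. Alveolar cells exceeded CD24lo cells 35.5-fold (log2 fold change of CD24lo -5.15 ± 0.24, adjusted p = 1.27e-11), CD24hi cells 129-fold (log2 fold change -7.01 ± 0.27, adjusted p = 5.09e-13) and EpCAM-negative cells 225-fold (log2 fold change -7.82 ± 0.28, adjusted p = 8.91e-14). In BSCs the 3 libraries together had 12 *Hc* reads and in alveolar cells 159710, a ratio of 44235.6 (95% counting interval 25323.1 to 85611.2). Non-basal tracheal cells had 129 reads, 13.0 times the BSC level (95% counting interval 7.17 to 25.7).

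**Figure D2:**
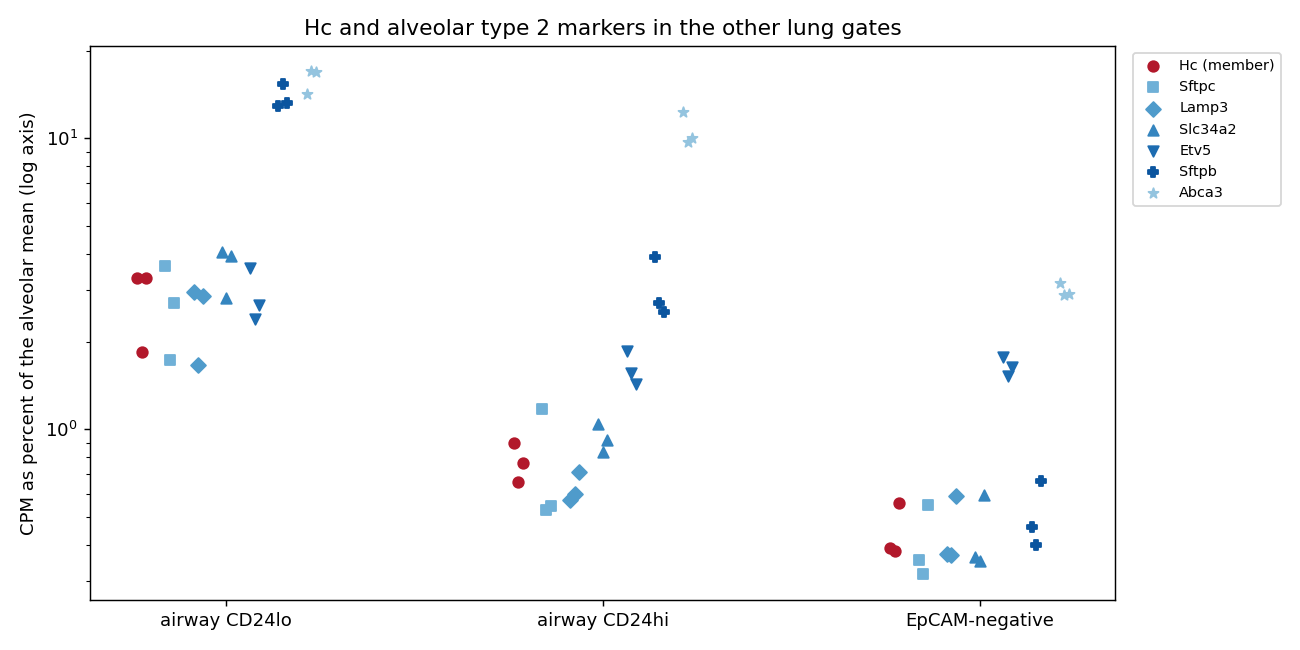
*Hc* (red) and 6 alveolar type 2 cell markers (blue) in the other lung gates, each as a percentage of its own mean in alveolar cells on a log axis; each point is a library. *Hc* stood at 1.84% to 3.31% in CD24lo cells, beside 1.73% to 3.65% for *Sftpc*.

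Alveolar type 2 cell markers were also highest in alveolar cells, and 3 of the 6 had shares close to those of *Hc* in the other lung gates. The 6 markers summed to 162101.9 to 180265.8 CPM in alveolar cells, 6822.2 to 8779.1 in CD24lo cells, 1704.9 to 2900.6 in CD24hi cells and 636.2 to 1033.2 in EpCAM-negative cells, and all 6 were detected in each of these gates. As a share of the alveolar mean, *Hc* was 1.84% to 3.31% in CD24lo, 0.658% to 0.898% in CD24hi and 0.381% to 0.559% in EpCAM-negative libraries. The surfactant gene *Sftpc* stood at 1.73% to 3.65%, 0.527% to 1.17% and 0.317% to 0.549% in the same gates, and *Lamp3* at 1.66% to 2.96%, 0.57% to 0.714% and 0.37% to 0.589%. *Slc34a2* stood at 2.82% to 4.06%, 0.834% to 1.04% and 0.353% to 0.593%. The other markers departed from *Hc*. *Abca3* was higher in all 3 gates (14.2% to 17.0%, 9.67% to 12.3% and 2.89% to 3.19%), *Sftpb* in CD24lo (12.9% to 15.3%) and CD24hi cells (2.53% to 3.9%), and *Etv5* in CD24hi (1.43% to 1.86%) and EpCAM-negative cells (1.52% to 1.77%). The part that type 2 cells sorted into the other gates have in their *Hc* reads was not tested.

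Among the member regulators the largest level per length was that of *Serping1*, the inhibitor of C1r, C1s and the MASP proteases. EpCAM-negative libraries held 4045.0, 3963.4 and 4081.9 CPM. Alveolar libraries held 232.6, 166.6 and 144.8 CPM, non-basal ones 110.8, 118.6 and 122.0, CD24lo ones 122.5, 59.1 and 79.9, BSCs 72.8, 82.1 and 82.1, and CD24hi ones 72.9, 35.3 and 25.0. Below the EpCAM-negative and alveolar libraries, each population overlapped its neighbour in the order. EpCAM-negative cells exceeded alveolar cells 22.2-fold (log2 fold change 4.47 ± 0.33, adjusted p = 1.88e-09), and alveolar cells exceeded CD24lo cells 2.08-fold (log2 fold change of CD24lo -1.06 ± 0.30, adjusted p = 0.00695).

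The smaller *Serping1* contrasts were less stable. BSCs lay below non-basal cells in all 3 libraries (log2 fold change -0.57 ± 0.29, adjusted p = 0.12), and with the mouse as a block the adjusted p was 0.0359. CD24hi cells were lower than CD24lo cells (log2 fold change -0.97 ± 0.30, adjusted p = 0.0109), although their libraries overlapped. Without CD24hi replicate 2, CD24hi replicate 3 or CD24lo replicate 1 this adjusted p was 0.0521, 0.0538 or 0.0818. Replicate 1 held the highest *Serping1* value of both airway gates, and in both gates it also held the highest sums of fibroblast markers (265.0 CPM against 177.1 and 120.3 in CD24hi, 684.0 against 541.5 and 565.1 in CD24lo cells) and of endothelial markers (680.7 CPM against 318.0 and 198.0 in CD24hi, 968.0 against 483.0 and 459.0 in CD24lo cells). The study's mouse lung staining included CD31, a protein of endothelial cells, and CD45, a protein of leukocytes, and its alveolar gate left out cells with either. Whether the airway and EpCAM-negative gates did so is not given in the sources used here. The alveolar libraries still held endothelial marker sums of 143.4 to 283.9 CPM. The part of fibroblasts, endothelial cells and leukocytes in the *Serping1* values was not tested.

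**Figure D3:**
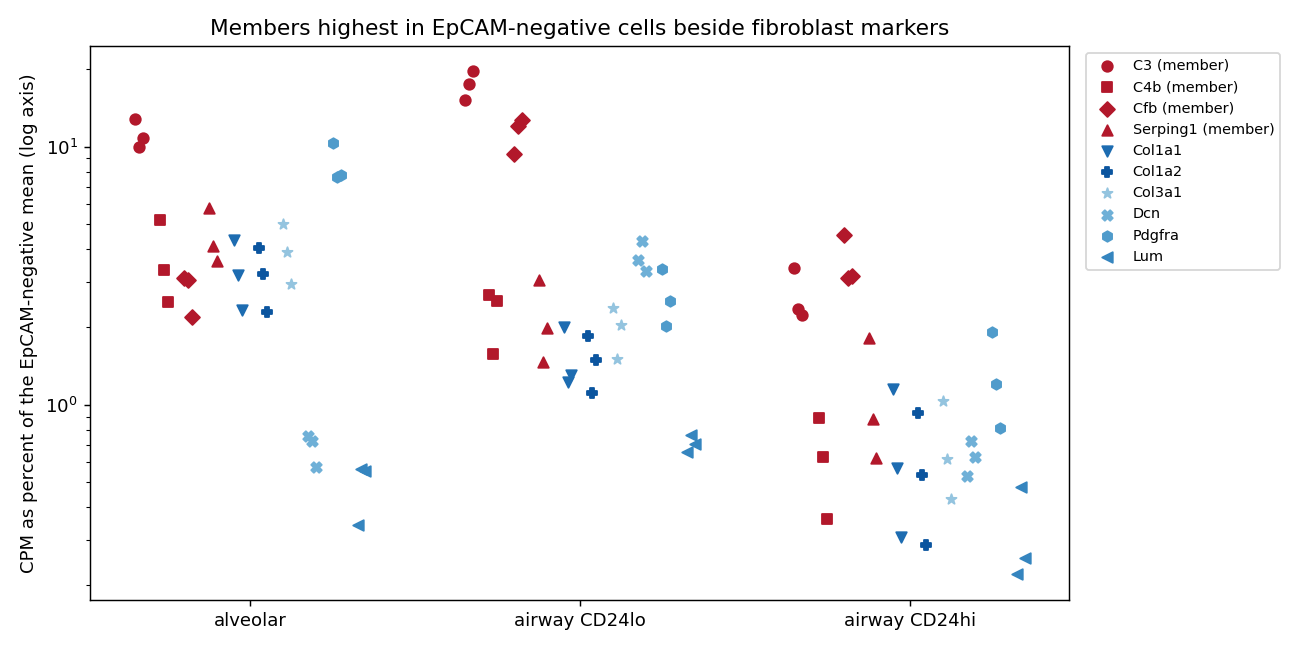
The 4 members highest in EpCAM-negative cells (red) and 6 fibroblast markers (blue) in the lung epithelial gates, as a percentage of the EpCAM-negative mean on a log axis; each point is a library. *C3* in CD24lo cells stood at 15.1% to 19.6%, above the *Col1a1* range of 1.23% to 2.0%, whereas *C4b* at 1.57% to 2.66% overlapped it.

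Fibroblast markers, like *C3*, *C4b*, *Cfb* and *Serping1*, were highest in EpCAM-negative cells. The 6 markers summed to 26648.8 to 28139.3 CPM in EpCAM-negative cells, 667.9 to 1104.1 in alveolar cells, 541.5 to 684.0 in CD24lo cells, 120.3 to 265.0 in CD24hi cells, 67.1 to 116.4 in non-basal cells and 332.7 to 339.1 in BSCs, where *Col1a1*, *Col1a2*, *Col3a1* and *Lum* were each under 0.2 CPM. As a share of the EpCAM-negative mean, *C4b* was 2.51% to 5.19% in alveolar, 1.57% to 2.66% in CD24lo and 0.36% to 0.89% in CD24hi libraries, and the collagen gene *Col1a1* 2.32% to 4.33%, 1.23% to 2.0% and 0.308% to 1.15%. *Serping1* had similar shares in the lung gates (3.59% to 5.77%, 1.47% to 3.04% and 0.621% to 1.81%). In trachea it kept 2.75% to 3.03% in non-basal cells and 1.81% to 2.04% in BSCs, where *Col1a1* was at most 0.177%. The 6 markers did not share a single pattern. *Dcn* stood at 5.71% to 5.82% in BSCs, above *Serping1*, 0.958% to 1.39% in non-basal and 0.573% to 0.756% in alveolar cells, and in alveolar cells *Lum* stood at 0.342% to 0.565% and *Pdgfra* at 7.59% to 10.3%. *C3* stood above *Col1a1* in each epithelial gate, at 15.1% to 19.6% in CD24lo, 9.96% to 12.8% in alveolar, 10.6% to 11.3% in non-basal, 2.23% to 3.4% in CD24hi and 2.05% to 2.31% in BSC libraries. It overlapped *Pdgfra* in alveolar cells and lay below *Dcn* in BSCs. *Cfb* stood at 2.19% to 3.09% in alveolar cells, overlapping *Col1a1*, at 9.38% to 12.7% in CD24lo, 3.1% to 4.55% in CD24hi, 1.88% to 2.62% in BSC and 32.2% to 39.0% in non-basal libraries. The 5 smooth muscle and pericyte markers were also highest in EpCAM-negative cells, where they summed to 2841.0 to 2975.2 CPM, against 120.9 to 254.9 in CD24lo, 72.9 to 111.2 in alveolar and 36.3 to 89.3 in CD24hi cells and at most 5.17 in trachea. The 4 mesothelial markers summed to 36.1 to 76.6 CPM in EpCAM-negative and 76.7 to 143.3 in CD24lo cells, 10.5 to 13.5 in CD24hi and 4.14 to 7.77 in alveolar cells. In trachea *Msln* made up nearly all of that sum (218.4 to 270.4 CPM in BSCs, 2593.8 to 2682.3 in non-basal cells), with *Upk3b*, *Wt1* and *Lrrn4* each averaging under 0.2 CPM. In CD24lo cells *Upk3b* (31.3% to 108.5% of the EpCAM-negative mean), *Lrrn4* (26.6% to 131.7%) and *Msln* (307.9% to 505.5%) lay above *C3*. *Wt1* (18.4% to 50.2%) overlapped it there. In alveolar cells *Msln* (8.28% to 19.5%), *Lrrn4* (9.28% to 18.2%), *Upk3b* (5.36% to 11.7%) and *Wt1* (0% to 11.5%) overlapped *C3*. In CD24hi cells *Upk3b* (7.17% to 15.8%), *Lrrn4* (3.55% to 12.3%) and *Msln* (29.3% to 46.2%) also lay above *C3*. *Wt1* (0% to 14.7%) overlapped it, as did all 5 smooth muscle and pericyte genes, from *Acta2* (1.05% to 2.26%) to *Pdgfrb* (1.58% to 5.55%). *Cnn1* (2.43% to 4.85%), *Cspg4* (1.92% to 5.14%) and *Pdgfrb* also overlapped *Cfb* in CD24hi cells. In CD24lo cells *Cnn1* (5.38% to 11.1%) and *Cspg4* (3.09% to 9.65%) did so. The part of these cell types in the epithelial values of *C3*, *C4b*, *Cfb* and *Serping1* was not tested.

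*Cfi*, the protease that inactivates C3b and C4b, was near the detection limit throughout, with 159 reads in all. Alveolar libraries held 1.76, 1.38 and 1.62 CPM, CD24hi ones 0.981, 1.63 and 0.787, EpCAM-negative ones 0.482, 0.495 and 0.381, CD24lo ones 0.368, 0.491 and 0.23, non-basal ones 0.511, 0.281 and 0.293, and BSCs 1 read each, or 0.0281 CPM. BSCs lay below all other libraries, alveolar and CD24hi cells overlapped each other, and the 3 populations between them overlapped as well. Against 3 reads in BSCs, the 32 in non-basal cells were a ratio of 12.9 (95% counting interval 4.02 to 65.6), and the 51 in alveolar cells a ratio of 56.5 (18.3 to 283.0). It was the member called higher in CD24hi than in CD24lo cells (log2 fold change 1.61 ± 0.40, adjusted p = 0.00237), on 45 against 11 reads.

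*Cd55* had an order of its own, with the airway cells at the top. CD24hi libraries held 210.0, 419.6 and 468.6 CPM, CD24lo ones 252.1, 280.1 and 303.4, tracheal non-basal ones 289.9, 273.9 and 259.7, BSCs 131.0, 125.8 and 113.1, alveolar ones 81.2, 74.1 and 78.4, and EpCAM-negative ones 65.0, 74.1 and 55.4. The first 3 populations overlapped, BSCs stood apart, and alveolar and EpCAM-negative libraries overlapped. CD24lo cells exceeded alveolar cells 3.58-fold (log2 fold change 1.84 ± 0.20, adjusted p = 7.45e-07) and CD24hi cells exceeded them 4.7-fold (2.23 ± 0.21, adjusted p = 3.47e-08). BSCs held 2.23-fold less than non-basal cells (log2 fold change -1.15 ± 0.20, adjusted p = 0.000114) and 1.58-fold more than alveolar cells (0.66 ± 0.20, adjusted p = 0.00753).

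The CD24hi replicates of *Cd55* disagreed: replicate 1, at 210.0 CPM, lay below all CD24lo libraries and the other two above them. The difference between the gates was 0.39 ± 0.20 on the log2 scale (adjusted p = 0.101), and without CD24hi replicate 1 it was 0.67 (adjusted p = 5.58e-05). That library also stood apart over all genes, with a chi-square per degree of freedom of 33.2 and 39.56 against replicates 2 and 3 and of 5.54 between those, and it held the highest endothelial and fibroblast marker sums of its gate (680.7 and 265.0 CPM). The part of this in the *Cd55* values was not tested. The *Cd55* paralogue *Cd55b*, whose promoter resembles that of *Cd55* as printed above, had 5.28, 9.19 and 6.61 CPM in CD24hi cells and 2.76, 2.55 and 3.22 in CD24lo cells, with no overlap (log2 fold change 1.31 ± 0.31, adjusted p = 0.00176). It stood at a mean of 0.152 CPM in alveolar cells. *Cd55* shares 4.3% of its 100-base words with other genes, *Cd55b* among them, and *Cd55b* 15.0%, so that a part of the *Cd55b* reads could belong to *Cd55*.

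Set out by population and per length, the leading member differed. In EpCAM-negative cells *Serping1* stood at 2214.3 ± 33.3 RPKM (SD, n = 3), ahead of *C3* at 1092.6 ± 14.9 and *C4b* at 462.2 ± 22.7. Alveolar cells were led by *Hc* at 915.0 ± 51.8 RPKM, with *C3* at 122.2 ± 15.8 and *Serping1* at 99.6 ± 25.1. *C3* led CD24lo cells (190.1 ± 24.6 RPKM) and, with overlap in no library, non-basal cells (119.9 ± 3.52 against 108.6 ± 5.97 for *Cd55*). *Cd55* led CD24hi cells (144.9 ± 54.4 RPKM) and BSCs (48.8 ± 3.66), although in BSCs its lowest library, at 44.7 RPKM, lay below the highest of *Serping1*, at 45.1.

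**Figure D4:**
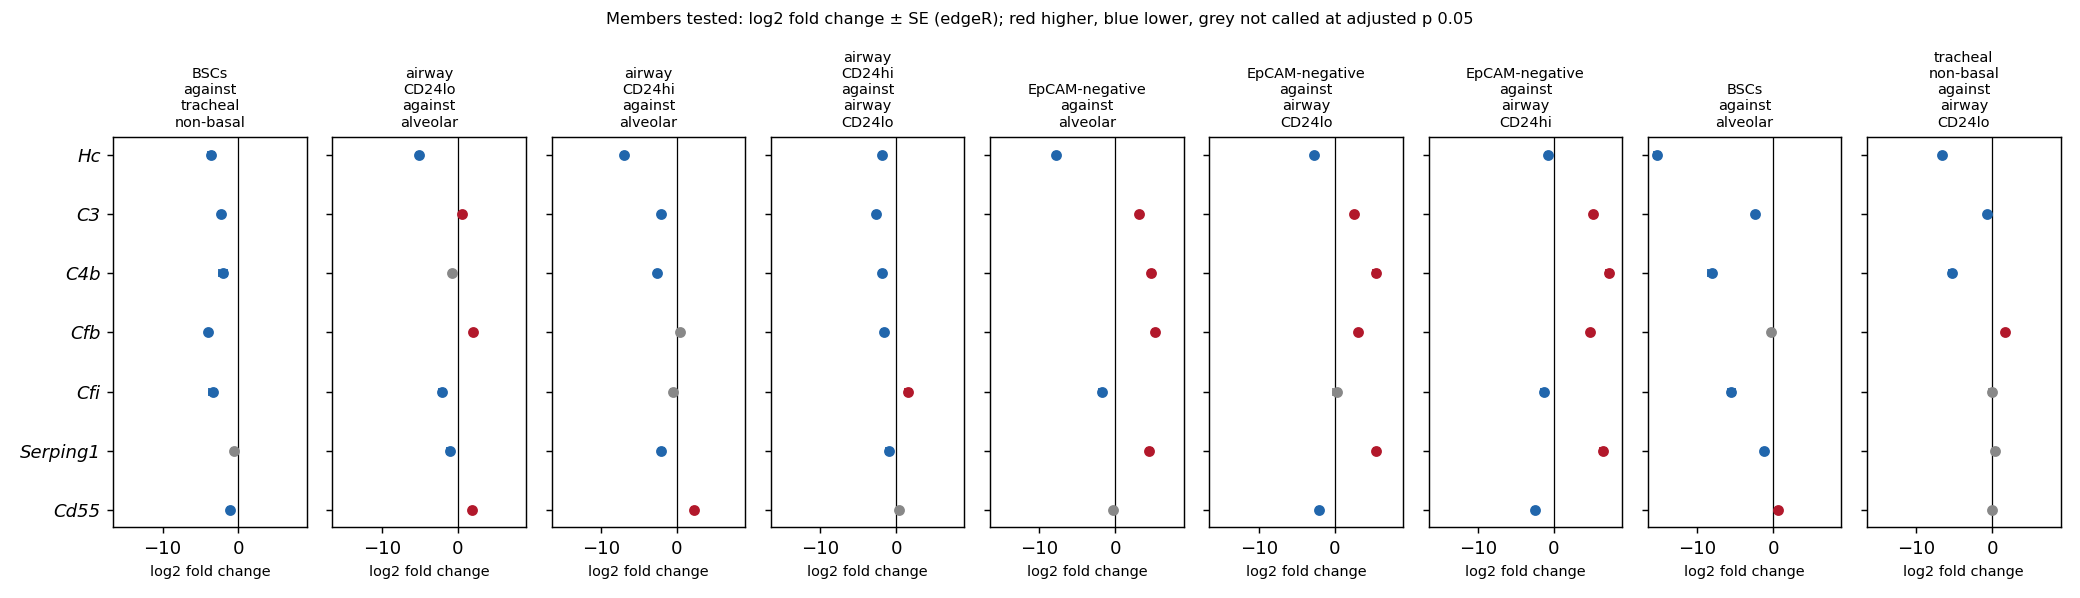
Log2 fold change ± SE (edgeR) of the 7 tested members in the 9 comparisons, first population against second; red is called higher, blue called lower and grey not called at an adjusted p of 0.05. All 6 calls between BSCs and non-basal cells point to lower levels in BSCs, beside 26.2% of all tested genes called lower and 21.9% higher. EpCAM-negative cells show 4 members higher than each lung epithelial gate, beside 32.1% to 36.7% of all tested genes. They show 2 members lower than alveolar cells, 2 lower than CD24lo cells and 3 lower than CD24hi cells, beside 29.2% to 35.6% of all tested genes.

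Counted over the 7 tested members, BSCs were lower than non-basal cells for 6 (*Hc*, *C3*, *C4b*, *Cfb*, *Cfi* and *Cd55*) and higher for 0, where 48.2% of all tested genes were called (26.2% lower, 21.9% higher). The median log2 fold change of the members was -2.35 and that of all genes -0.02. BSCs against alveolar cells had 5 lower (*Hc*, *C3*, *C4b*, *Cfi* and *Serping1*) and 1 higher (*Cd55*), with 66.1% of all genes called (35.6% lower, 30.5% higher). Non-basal against CD24lo cells had 3 lower (*Hc*, *C3* and *C4b*) and 1 higher (*Cfb*), with 53.1% called (27.8% lower, 25.3% higher), and the member median was -0.03.

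In the lung, CD24lo against alveolar cells split evenly, with *C3*, *Cfb* and *Cd55* higher and *Hc*, *Cfi* and *Serping1* lower (48.4% of all genes called, 24.2% in each direction). CD24hi cells had 4 members below alveolar cells (*Hc*, *C3*, *C4b* and *Serping1*) and *Cd55* above them (61.9% called, 31.4% lower and 30.5% higher), and 5 below CD24lo cells (those 4 and *Cfb*) with *Cfi* above them (55.0% called, 27.2% lower and 27.8% higher). EpCAM-negative cells had the same 4 members, *C3*, *C4b*, *Cfb* and *Serping1*, above alveolar cells (61.9% called, 32.7% higher and 29.2% lower), CD24lo cells (63.4% called, 32.1% higher and 31.4% lower) and CD24hi cells (72.2% called, 36.7% higher and 35.6% lower). *Hc* was lower in all 3 of these comparisons, *Cfi* lower than in alveolar and CD24hi cells, and *Cd55* lower than in both airway gates. Comparisons that share a population share its libraries, so their counts are not independent, and they stand against backgrounds of 48.2% to 72.2% of all genes.

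The other genes of the cascade were read from a list of 48, of which 41 entered the test and 32 averaged 1 CPM or more. EpCAM-negative cells were higher than alveolar cells for 28 and lower for 8 (32.7% and 29.2% of all tested genes), higher than CD24lo cells for 24 and lower for 10 (32.1% and 31.4%), and higher than CD24hi cells for 27 and lower for 6 (36.7% and 35.6%). The 9 genes that start the classical pathway were higher in each of these 3 comparisons. They include the 3 C1q genes, and leukocyte markers stood beside these: *C1qa* read 3.61, 5.94 and 1.45 CPM in the EpCAM-negative libraries, where 6 leukocyte markers summed to 60.7, 75.2 and 19.5 CPM and 6 macrophage markers to 34.3, 53.3 and 26.0, against 4.58 to 11.4 and 21.5 to 28.4 in alveolar cells. Whether cells with CD45 were removed from the EpCAM-negative gate is not given in those sources. The part of leukocytes and macrophages was not tested. *C1s1*, a C1 protease and a target of C1 inhibitor, averaged 1458.0 ± 46.7 CPM in EpCAM-negative cells and 60.6 ± 11.7 in alveolar cells (log2 fold change 4.59 ± 0.24, adjusted p = 1.49e-11). *C2*, the partner of C4b in the classical convertase, averaged 200.4 ± 10.2 and 8.61 ± 1.72 CPM (log2 fold change 4.53 ± 0.26, adjusted p = 4.39e-11), with 37.1% of its 100-base words shared with *Gm20547* or *Zbtb12*. *C1ra*, the C1r protease gene, averaged 571.0 ± 7.5 against 25.3 ± 5.69 CPM (log2 fold change 4.49 ± 0.21, adjusted p = 4.26e-12), and shares 35.9% of its words with *C1rb* and *Gm18840*.

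*Clu*, a fluid-phase inhibitor of the membrane attack complex, was lower in BSCs (25.2 ± 0.574 CPM) than in non-basal cells (205.9 ± 31.9; log2 fold change -3.03 ± 0.12, adjusted p = 1.09e-11). It was also lower in CD24hi (241.9 ± 30.1 CPM) than in CD24lo cells (332.1 ± 40.5 CPM; log2 fold change -0.46 ± 0.11, adjusted p = 0.00253). *Vtn*, another fluid-phase inhibitor of that complex, passed the test in neither airway comparison (adjusted p = 0.451 in trachea and 0.385 in lung). In trachea it had 0 reads in BSCs and 1 in non-basal cells, too few to show a difference. Over the list, BSCs were higher than non-basal cells for 9 of the 41 tested genes and lower for 12, beside 21.9% and 26.2% of all tested genes, which is near the background. *Cpn1* and *Cpn2* encode the subunits of carboxypeptidase N, which inactivates C3a and C5a. In trachea *Cpn1* had no read in BSCs and averaged 0.823 ± 0.133 CPM in non-basal cells (adjusted p = 1.36e-06). *Cpn2* did not pass the test there (adjusted p = 0.131), with 0 reads in BSCs and 3 in non-basal cells, too few to show a difference. In lung *Cpn2* averaged 33.0 ± 2.17 CPM in CD24hi and 3.89 ± 2.05 in CD24lo cells (log2 fold change 3.06 ± 0.27, adjusted p = 1.18e-07), and *Cpn1* 17.9 ± 1.53 and 3.31 ± 0.492 (2.43 ± 0.25, adjusted p = 5.58e-07). In alveolar cells *Cpn1* was higher still, at 27.0 ± 1.91 CPM, and *Cpn2* was at 0.282 ± 0.0975.

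Downstream of *Hc*, 3 of the 6 listed terminal genes entered the test. *C6* averaged 218.0 ± 1.69 CPM in alveolar cells, 84.2 ± 12.8 in CD24lo cells and 17.5 ± 0.873 in EpCAM-negative cells (EpCAM-negative against alveolar, log2 fold change -3.64 ± 0.16, adjusted p = 9.65e-12), and had 2 reads in all 6 tracheal libraries. *C7* took the opposite direction, at 2373.8 ± 115.7 CPM in EpCAM-negative and 156.2 ± 27.3 in alveolar cells (log2 fold change 3.93 ± 0.35, adjusted p = 2.35e-08). *C8g*, a C8 subunit gene, was not called between these populations (adjusted p = 0.533) and averaged 1.26 CPM over all libraries. *C8a*, *C8b* and *C9* were not tested, and *C9* had 0 reads. *C5ar2*, a receptor for C5a, peaked with *Hc* in alveolar cells at 18.7 ± 4.83 CPM, against 2.67 ± 0.706 in CD24lo cells (log2 fold change -2.82 ± 0.27, adjusted p = 1.23e-07). The lectin *Mbl1* also peaked there, with 10.1, 10.4 and 9.49 CPM against 2.85, 5.4 and 2.53 (-1.47 ± 0.34, adjusted p = 0.00157). *C5ar1*, the other C5a receptor listed, did not. It averaged 2.62 ± 1.04 CPM in EpCAM-negative and 0.723 ± 0.251 in alveolar cells (log2 fold change 1.86 ± 0.45, adjusted p = 0.00169).

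**Figure D5:**
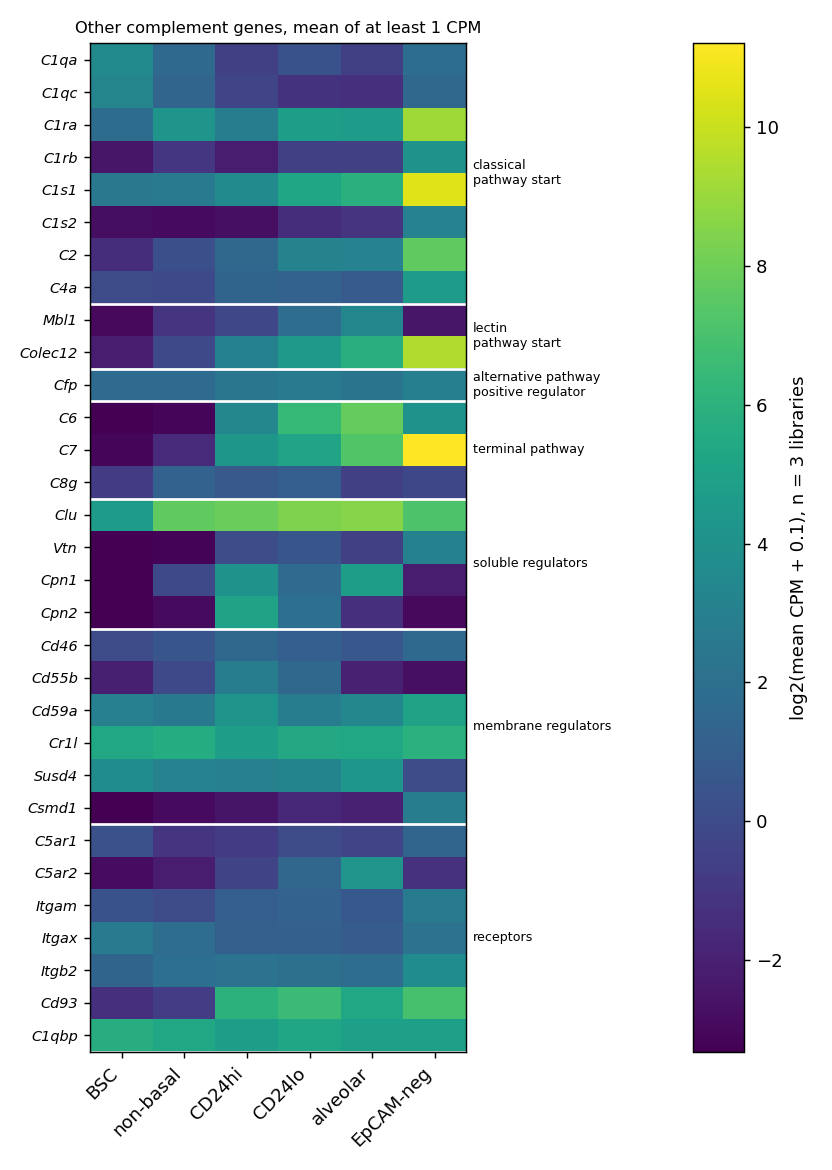
Mean level of 31 other complement genes that averaged 1 CPM or more, as log2(mean CPM + 0.1) over 3 libraries in each population, grouped by role. *C7* was brightest in EpCAM-negative cells (2373.8 CPM), *C6* in alveolar cells (218.0 CPM) and *Cpn2* in CD24hi cells (33.0 CPM).

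C1q ran against the tracheal members. *C1qa* read 10.5, 14.1 and 12.3 CPM in BSCs and 4.19, 1.51 and 3.22 in non-basal cells, with no overlap (log2 fold change 2.04 ± 0.36, adjusted p = 0.000132), and *C1qc* averaged 9.83 ± 1.06 and 2.59 ± 0.734 (1.92 ± 0.40, adjusted p = 0.00075). C1q is a known product of macrophages, and 6 macrophage markers summed to 30.6 to 38.1 CPM in BSCs and 18.8 to 26.7 in non-basal cells, with *Marco* at 0 in both. The markers differed among themselves: *Adgre1* averaged 5.51 CPM in BSCs and 1.38 in non-basal cells, *Csf1r* 18.2 and 10.2, *Cd163* 0.357 and 0.0577, and *Cd68* 9.65 and 9.71. The part of macrophages in these values was not tested.

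Across the 18 libraries and 10502 genes that averaged 10 CPM or more, the patterns nearest to each member were described by Pearson's r of log2 CPM, over points that share populations and mice. Nearest to *Hc* were *Lrg1* (r = 0.992), *Vsig2* and *Cxcl15*, which like it peaked in alveolar cells. Among the patterns nearest to *C3* were *Pkdcc* (r = 0.982) and *Hspb6*. *C4b* lay nearest to *Rcn3* (r = 0.997), *Adamts2* and *Colec12*, and *Serping1* to *P3h1* (r = 0.995), *Timp2* and *Pla2g15*. *Cfb* lay nearest to *Tnfaip2* (r = 0.975), *Gfpt2* and *Scara3*, genes that also had their second place in tracheal non-basal cells. *Cd55* lay nearest to *Cd24a* (r = 0.965), whose protein set the lung airway gates, then *Tstd1* and *Acox2*, and *Cfi* to *Slc24a4* (r = 0.949), *Srp14* and *Paxx*. The *Cfi* pattern rests on 159 reads in all and depends in part on the prior count, so its nearest genes are uncertain. Among members, r was 0.87 for *C3* and *Serping1*, 0.84 for *C3* and *Cfb*, and -0.75 for *Serping1* and *Cd55*.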

How the data were processed

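RNA was sequenced from 18 libraries of 6 sorted populations. The authors used Rsubread for alignment to mm10 and featureCounts, with the in-built RefSeq annotation, for counting, and deposited raw counts per Entrez gene without normalization, beside gene lengths; whether counting used strand is not given in the sources used here. A table of the whole series holds the same counts and was not used. Symbols came from RefSeq's GRCm38.p6 table, which matched 25275 of 27179 identifiers, and 0 rows named no gene. Groups and mouse numbers follow the labels.

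A gene was kept if 3 or more libraries exceeded 0.2 CPM, which left 17989. After TMM scaling, edgeR 4.0.16 (glmQLFit, glmQLFTest; R 4.3.3) tested them in a single fit of all 18 libraries. Genes were called at a Benjamini-Hochberg adjusted p under 0.05, two-sided. SE is the log2 fold change divided by the square root of F. The study fitted limma voom, which was an alternative here (limma 3.58.1), as were DESeq2 1.42.0, no filter or a filter at 1 CPM, RLE factors, library size alone, the compared libraries only, a replicate block and leaving out each library. The members and gene lists were chosen with earlier results of these data known. Genes named for their levels are the members, listed complement genes that averaged 1 CPM or more, and the 3 genes nearest to each member, with a prior count of 2. Cell type markers, genes that share sequence with these, and *C8a*, *C8b* and *C9*, which were not tested, are named besides. Results of 1 gene are not reported here.

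Libraries with a shared number come from the same mouse within an organ, by the labels. The study used a paired t test for end-joining genes in mouse alveolar cells and BSCs, whereas the labels were read as separate mice here. Deviations from group means over genes correlated at 0.34, 0.12 and 0.22 between BSCs and non-basal cells, and at -0.06 to 0.28 between lung populations. Replicate libraries differed beyond counting noise. In a simulation, 142 of 200 genes changed in BSCs and 9 false ones were called among 17989 for BSCs against non-basal cells. All other genes had equal means in every population there, unlike the data, where 48.2% were called in that comparison. These rates therefore need not hold for the data. The median depth was 30751471.5 counted reads in trachea and 11971725.0 in lung, so low transcripts carry more counting error in lung. Counting intervals are exact at 95%.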

Additional observations from a re-analysis of the deposited data

How the results depend on the processing

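Counts of genes and of members called stayed within 1.5 times the reported value under the alternatives run in each comparison. For members, BSCs against non-basal cells gave 5 to 7 called, CD24lo against alveolar cells 6 to 7, CD24hi against alveolar cells 5 to 7, CD24hi against CD24lo cells 5 to 7 and EpCAM-negative against alveolar cells 6 to 7. With library size alone, without TMM, the median gene's log2 fold change went from -0.02 to 0.31 between BSCs and non-basal cells, from -0.01 to 0.29 between CD24hi and alveolar cells, from -0.06 to 0.21 between CD24hi and CD24lo cells and from -0.09 to 0.29 between BSCs and alveolar cells. The share of calls that were higher moved from 45.5% to 72.2%, from 49.2% to 65.4%, from 50.5% to 68.4% and from 46.1% to 64.5% in those comparisons. For EpCAM-negative cells it moved from 52.8% to 62.7% against alveolar, from 50.6% to 58.8% against CD24lo and from 50.7% to 45.5% against CD24hi cells.

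Directions turned for 3 differences that were not called. *Cfb* in BSCs against alveolar cells went from -0.30 to 0.10 with library size alone. In non-basal against CD24lo cells, *Cfi* (-0.03) was at 0 with library size alone and with the replicate block, and ran from -0.35 to 0.23 with single libraries left out (above 0 without non-basal replicate 2 or 3 or CD24lo replicate 2). *Cd55* (-0.02) was at 0.01 with library size alone, 0 without a filter, and -0.09 to 0.04 with single libraries left out (above 0 without non-basal replicate 3 or CD24lo replicate 3). Other calls that moved were *C4b* in CD24lo against alveolar cells (adjusted p = 0.0308 with limma voom, 0.0487 without CD24lo replicate 1 and 0.0256 without alveolar replicate 3), *Cfb* in CD24hi against alveolar cells (0.00242 with library size alone, 0.0497 without CD24hi replicate 2), *Cfi* there (0.038 without CD24hi replicate 2), *Cd55* in CD24hi against CD24lo cells (0.00712 with library size alone) and in EpCAM-negative against alveolar cells (0.0135 with the compared libraries only), and *Serping1* between BSCs and non-basal cells (2.84e-05 with the compared libraries only) and in CD24hi against CD24lo cells (0.0627 with library size alone, 0.07 with the compared libraries only). The cause was not tested.

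With the replicate block, 7 members were called between BSCs and non-basal cells and 7 between CD24lo and alveolar cells, by the *Serping1* and *C4b* values given above, and the block changed no other call of a member. Between trachea and lung the numbers are shared by different mice (correlations of -0.01 to 0.05), and the block gave 6 and 4 members called. *Cfi*, *Cfd* and tracheal *Hc* and *C4b* rest on few reads, and depth limits what can be said of them.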
